A study of Mus musculus with 6 samples.

Results

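The homeostatic astrocyte genes are 10 genes with which astrocytes carry out their housekeeping work in healthy brain: Slc1a2, Slc1a3, Glul, Gja1, Gjb6, Aqp4, Aldh1l1, S100b, Fgfr3 and Ndrg2. They were found by gene symbol among the 36758 genes of the deposited expression table, where each symbol had a single gene ID, and all 10 were measured. The TMAO group was C57BL/6J mice given 0.12% trimethylamine N-oxide (TMAO, a liver product of gut bacterial trimethylamine) once a day over 16 weeks, with 3 libraries. The vehicle group was C57BL/6J mice given water over the same 16 weeks, with 3 libraries. The series gives an age of 6 months for the mice and names no further treatment, surgery or engineered allele for either group. Levels are FPKM, fragments scaled to gene length and library size. This scaling does not remove differences in cell makeup between libraries, and the direction of some members changed under other scalings.

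Astrocytes are glial cells whose fine processes wrap synapses and whose endfeet cover brain vessels. They take up glutamate released by neurons through sodium-coupled transporters, turn it into glutamine and hand that back for renewed transmitter synthesis. Gap junctions join them into networks that spread potassium and metabolites, and water channels in the endfeet move water between blood, fluid spaces and brain tissue.

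The labels name the cell type as microglia and the tissue as brain. The 10 microglial markers examined were all detected and summed to 151 to 168 FPKM in the TMAO libraries and 139 to 365 FPKM in the vehicle libraries. The 10 astrocyte genes summed to 923, 964 and 923 FPKM in the TMAO libraries, against 1224, 901 and 804 FPKM in the vehicle libraries. The 15 neuronal markers summed to 1736 to 2086 FPKM in the TMAO libraries and 539 to 1769 FPKM in the vehicle libraries. The levels therefore go against the label and are those of RNA from several brain cell types, with astrocyte genes among the abundant ones. In such RNA, fewer astrocytes and less RNA per astrocyte cannot be told apart. Vehicle replicate 1 stood apart from the rest, with correlations to the other libraries of 0.804 to 0.896, against 0.959 to 0.986 among the remaining 5. Whether each library is a separate animal is not stated, so p-values measure only the spread between libraries, which may be technical.

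Between the treatments, 3 of the 10 genes were higher in every TMAO library than in any vehicle library: the growth factor receptor Fgfr3, the connexin Gjb6 and the glutamate transporter Slc1a2. Their mean FPKM were 1.48, 1.34 and 1.20 times the vehicle means. None of the 10 had TMAO values wholly below the vehicle values. Over all 14206 genes tested, groups that did not overlap made up 12.1% in the higher direction and 17.5% in the lower one. At an unadjusted limma p under 0.05, 2 members (Fgfr3 and Gjb6) were higher and 0 were lower, beside 4.84% of all genes higher and 7.22% lower. With Benjamini-Hochberg adjustment over all genes, limma called 0 of the 10 members and 0 of the 14206 genes (0%) at 0.05, where 1712 genes had an unadjusted p under 0.05. The smallest adjusted limma p of any gene was 0.404.

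By direction alone, 4 members were higher in TMAO (Slc1a2, Gjb6, Fgfr3 and Aldh1l1) and 6 were lower (Slc1a3, Glul, Gja1, Aqp4, S100b and Ndrg2). The median difference of the members was -0.060 on the log2(FPKM + 1) scale, beside -0.027 over all genes tested. After scaling to the median gene, 6 were higher. This split also rests on vehicle replicate 1, which held the highest value of 6 members and the lowest of Gjb6 and Fgfr3. Without it, 7 members were higher in TMAO and 3 lower, and their median difference was 0.14, beside -0.022 over all genes. Groups then did not overlap for 4 members, all higher in TMAO, beside 15.6% of all genes higher and 21.7% lower.

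**Figure D1:**
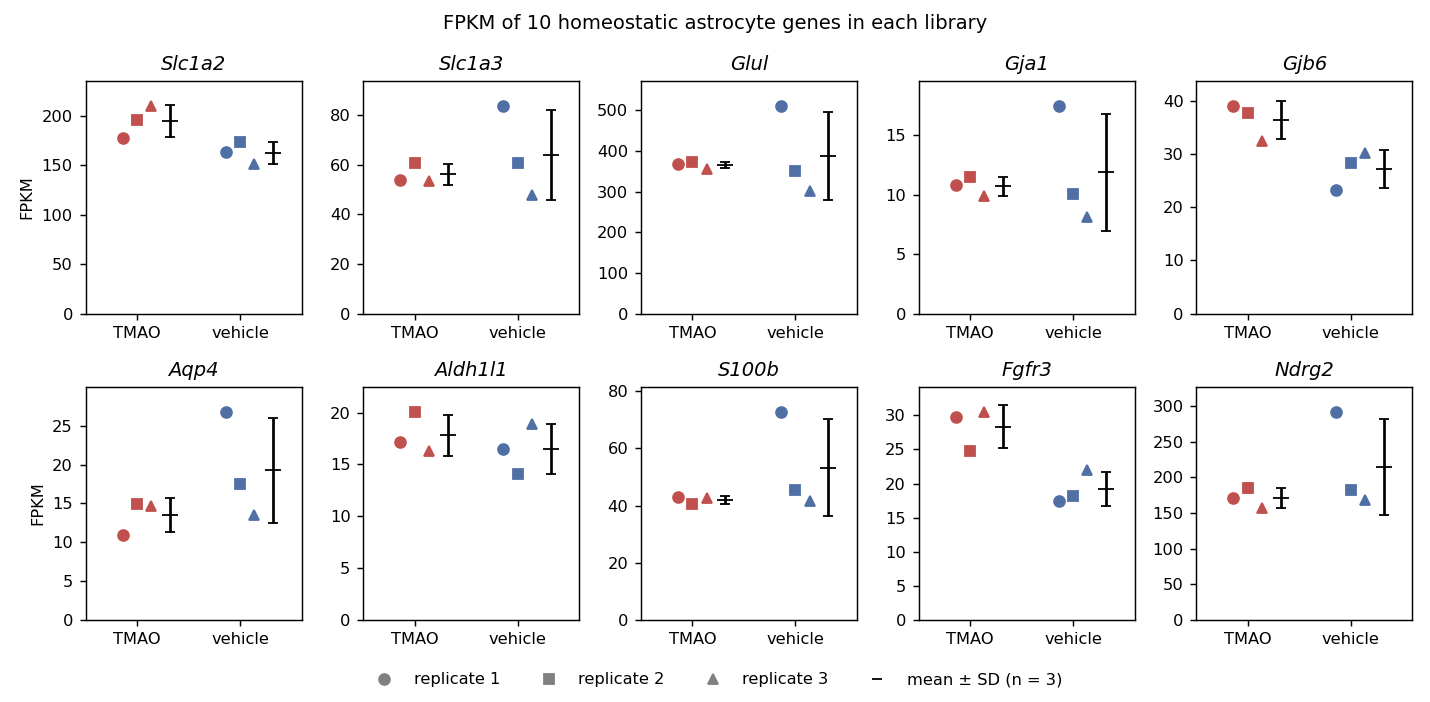
FPKM of each of the 10 homeostatic astrocyte genes in a panel of its own, on a linear axis from 0, with 1 point per library, TMAO left of vehicle, and the mean ± SD (n = 3) beside each group. Fgfr3, Gjb6 and Slc1a2 show TMAO points above all vehicle points, and vehicle replicate 1 (blue circle) is the highest point of 6 genes.

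Glutamate uptake and its conversion to glutamine are served by Slc1a2, Slc1a3 and Glul. Slc1a2 encodes GLT-1, the main glutamate transporter of the adult forebrain, and its gene lies at chr2:102658659-102790784 on the plus strand (GRCm38). Slc1a2 was at 178, 196 and 210 FPKM in the TMAO libraries, against 163, 174 and 152 FPKM in the vehicle libraries. All 3 TMAO values lay above all 3 vehicle values, the closest pair being TMAO replicate 1 and vehicle replicate 2. The means were 195 ± 16.1 FPKM in TMAO and 163 ± 11.1 FPKM in vehicle (SD, n = 3 each). The difference was 0.26 (SE 0.138) on the log2(FPKM + 1) scale, with an adjusted limma p of 0.413 (Benjamini-Hochberg). An exact two-sided permutation test gave p = 0.1, the smallest that 3 against 3 libraries allow. Vehicle replicate 1 was the middle vehicle value here, and without that library the difference stayed at 0.26 (SE 0.108).

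Slc1a3 encodes GLAST, the related transporter that prevails in cerebellar Bergmann glia and in the developing brain (chr15:8634124-8710764, minus strand). Slc1a3 was at 53.9, 60.8 and 53.6 FPKM in the TMAO libraries, against 83.7, 60.5 and 48.0 FPKM in the vehicle libraries. The vehicle libraries spanned the TMAO values on both sides, so the groups overlapped. The means were 56.1 ± 4.10 FPKM in TMAO and 64.1 ± 18.1 FPKM in vehicle (SD, n = 3 each), a log2 difference of -0.15 (SE 0.217) that became 0.054 without vehicle replicate 1. Adjusted limma p was 0.682 (Benjamini-Hochberg). The level of Slc1a2 over that of Slc1a3 was 3.31, 3.23 and 3.92 in the TMAO libraries, against 1.95, 2.87 and 3.16 in the vehicle libraries. Each TMAO ratio lay above each vehicle ratio, by a narrow margin over vehicle replicate 3.

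Glul encodes glutamine synthetase, which in brain is found mainly in astrocytes (chr1:153899944-153909723, plus strand). It had the highest mean level of the 10 genes, with 369, 372 and 356 FPKM in the TMAO libraries, against 511, 351 and 302 FPKM in the vehicle libraries. The 3 TMAO values sat close together and inside the wide vehicle range. The means were 366 ± 8.26 FPKM in TMAO and 388 ± 109 FPKM in vehicle (SD, n = 3 each), a log2 difference of -0.048 (SE 0.219) with an adjusted limma p of 0.902 (Benjamini-Hochberg). Without vehicle replicate 1 the difference was 0.17 and the groups no longer overlapped, and under scaling to the median gene it was 0.037, so its direction depends on the scaling and on that library.

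Of 20 other genes of glutamate and glutamine handling, 19 passed the expression filter, with 12 higher and 7 lower in TMAO. Their median log2 difference was 0.10, or -0.0014 without vehicle replicate 1, and limma called 0 of them after adjustment. Grm3, a metabotropic glutamate receptor of astrocytes and neurons, averaged 8.50 ± 0.670 FPKM in TMAO and 6.36 ± 0.224 FPKM in vehicle, with no overlap (SD, n = 3 each, here and for the other related genes). The cystine and glutamate exchanger Slc7a11 averaged 4.65 ± 2.22 FPKM in TMAO and 15.3 ± 11.96 FPKM in vehicle, with overlapping groups. The neutral amino acid transporter Slc1a5 averaged 1.10 ± 0.208 FPKM in TMAO and 3.002 ± 2.44 FPKM in vehicle. The glutaminase Gls2 averaged 8.24 ± 1.05 FPKM in TMAO and 5.16 ± 3.19 FPKM in vehicle, with overlapping groups. The log2 differences of Slc7a11, Slc1a5 and Gls2 were -1.27, -0.77 and 0.74, or -0.70, -0.31 and 0.26 without vehicle replicate 1. Among the 19, groups did not overlap for 1 gene higher (Grm3) and 1 lower (Slc1a5), beside 12.1% and 17.5% of all genes tested. Adjusted limma p for Grm3, Slc7a11, Slc1a5 and Gls2 lay between 0.404 and 0.418 (Benjamini-Hochberg).

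Gap junctions between astrocytes are built mostly from connexin 43 (Gja1) and connexin 30 (Gjb6). Gjb6, at chr14:57123303-57133611 on the minus strand, was at 39.0, 37.7 and 32.4 FPKM in the TMAO libraries, against 23.2, 28.2 and 30.2 FPKM in the vehicle libraries. All TMAO values lay above all vehicle values, with vehicle replicate 1 the lowest of the 6. The means were 36.4 ± 3.48 FPKM in TMAO and 27.2 ± 3.58 FPKM in vehicle (SD, n = 3 each). The difference was 0.41 (SE 0.146) on the log2(FPKM + 1) scale, with an adjusted limma p of 0.404 (Benjamini-Hochberg) and an exact two-sided permutation p of 0.1. Without vehicle replicate 1 it was 0.30 (SE 0.101), still without overlap.

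Gja1, at chr10:56377330-56402513 on the plus strand, was at 10.8, 11.5 and 9.87 FPKM in the TMAO libraries, against 17.5, 10.03 and 8.14 FPKM in the vehicle libraries. It had the lowest mean level of the 10 genes, and the vehicle values enclosed the TMAO values. The means were 10.7 ± 0.810 FPKM in TMAO and 11.9 ± 4.93 FPKM in vehicle (SD, n = 3 each). The log2 difference was -0.072 (SE 0.263; adjusted limma p 0.879, Benjamini-Hochberg), with 0.22 without vehicle replicate 1 and 0.0071 after scaling to the median gene. The level of Gjb6 over Gja1 was 3.61, 3.28 and 3.29 in the TMAO libraries, against 1.33, 2.81 and 3.70 in the vehicle libraries. This ratio was low in vehicle replicate 1 and highest in vehicle replicate 3, so the groups overlapped.

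Among 11 other connexins, pannexins and partners, 10 passed the filter, with 3 higher and 7 lower in TMAO and a median of -0.41 on the log2 scale (-0.24 without vehicle replicate 1). The oligodendrocyte connexin Gjb1 averaged 2.07 ± 1.15 FPKM in TMAO and 7.46 ± 3.73 FPKM in vehicle. Gjc1 (connexin 45) averaged 1.25 ± 0.0426 FPKM in TMAO and 2.69 ± 1.55 FPKM in vehicle, while the neuronal pannexin Panx2 averaged 23.5 ± 1.63 FPKM in TMAO and 14.6 ± 6.797 FPKM in vehicle. Panx2 was at 7.70, 14.8 and 21.3 FPKM in the vehicle libraries, and its log2 difference of 0.75 was 0.38 without vehicle replicate 1. The neuronal markers summed to 539 FPKM in vehicle replicate 1, and their part in the Panx2 level was not tested. None of these 3 genes, picked for their small p, had overlapping groups. Among the 10, groups did not overlap for 1 gene higher and 4 lower in TMAO, beside 12.1% and 17.5% of all genes tested. Limma called 0 of the 10 after adjustment. The 13 oligodendrocyte markers were lower in TMAO as well, all 13 by direction and 9 without overlap, beside 17.5% of all genes tested. These markers summed to 712, 448 and 494 FPKM in the TMAO libraries, against 1062, 919 and 847 FPKM in the vehicle libraries. Their part in the lower level of Gjb1 was not tested.

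Water and potassium movement at the endfoot is represented by Aqp4, the water channel aquaporin-4. Aqp4 was at 10.95, 14.9 and 14.7 FPKM in the TMAO libraries, against 26.8, 17.5 and 13.5 FPKM in the vehicle libraries. TMAO replicate 1 was the lowest and vehicle replicate 1 the highest, and vehicle replicate 3 fell inside the TMAO range. The means were 13.5 ± 2.22 FPKM in TMAO and 19.3 ± 6.81 FPKM in vehicle (SD, n = 3 each). The difference, -0.44 (SE 0.261) on the log2(FPKM + 1) scale, was the most negative of the 10 members, with an adjusted limma p of 0.425 (Benjamini-Hochberg). It was -0.19 without vehicle replicate 1.

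Of 18 other endfoot, potassium and water genes, 17 passed the filter, with 8 higher and 9 lower in TMAO, a median of -0.0050 on the log2 scale (0.13 without vehicle replicate 1) and 0 calls by limma after adjustment. Groups did not overlap for 5 genes higher and 4 genes lower in TMAO, beside 12.1% and 17.5% of all genes tested. The monocarboxylate transporter Slc16a1, also strong in endothelium, averaged 7.73 ± 0.881 FPKM in TMAO and 15.3 ± 5.19 FPKM in vehicle. The 9 endothelial markers summed to 94.2, 112 and 110 FPKM in the TMAO libraries, against 375, 150 and 107 FPKM in the vehicle libraries, and their part in the Slc16a1 level was not tested. The endfoot scaffold gene Dtna (alpha-dystrobrevin) averaged 8.12 ± 0.215 FPKM in TMAO and 6.17 ± 1.14 FPKM in vehicle, and the basement membrane proteoglycan Agrn averaged 25.6 ± 0.608 FPKM in TMAO and 21.6 ± 1.22 FPKM in vehicle. The chloride channel Clcn2 averaged 16.3 ± 1.30 FPKM in TMAO and 11.1 ± 4.21 FPKM in vehicle. These 3 genes were higher in every TMAO library than in any vehicle library.

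Fgfr3 encodes a fibroblast growth factor receptor that marks astrocytes and their precursors (chr5:33721674-33737068, plus strand). Fgfr3 was at 29.8, 24.8 and 30.5 FPKM in the TMAO libraries, against 17.4, 18.1 and 22.0 FPKM in the vehicle libraries. All TMAO values lay above all vehicle values, and vehicle replicate 1 was the lowest. The means were 28.4 ± 3.09 FPKM in TMAO and 19.2 ± 2.48 FPKM in vehicle (SD, n = 3 each). Its difference of 0.54 (SE 0.144) on the log2(FPKM + 1) scale was the most positive of the 10 members. The unadjusted limma p was 0.00852, the adjusted limma p was 0.404 (Benjamini-Hochberg), and the exact two-sided permutation test gave p = 0.1. Without vehicle replicate 1 the difference was 0.48 (SE 0.125). The authors' deposited table lists for Fgfr3 a fold of 1.48 with a p of 0.00380 and a q of 0.134, and for Gjb6 a fold of 1.34 with a q of 0.369.

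**Figure D2:**
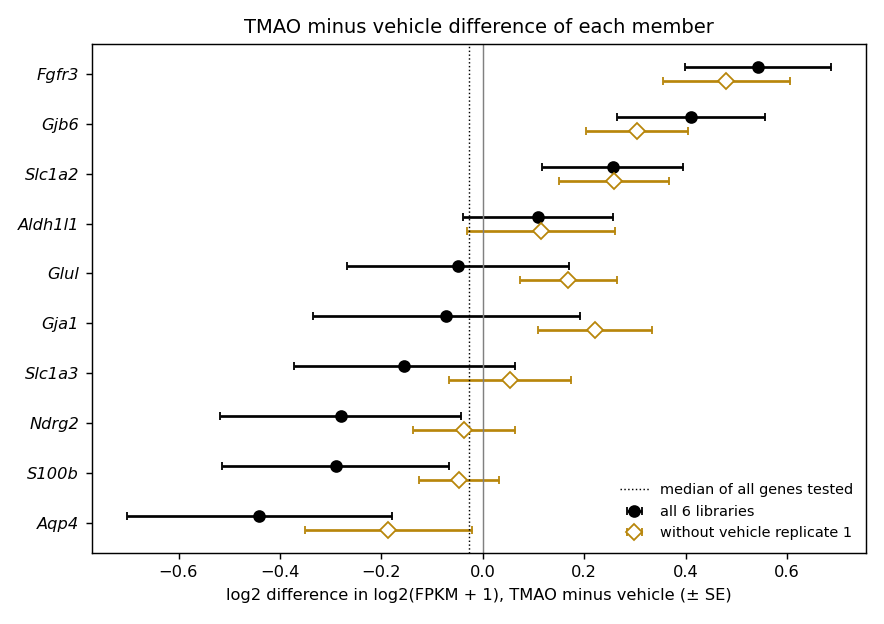
Difference between TMAO and vehicle for each of the 10 genes on the log2(FPKM + 1) scale, TMAO minus vehicle, with standard errors from limma, for all 6 libraries and without vehicle replicate 1. Fgfr3, Gjb6, Slc1a2 and Aldh1l1 lie above 0 in both fits, while Slc1a3, Glul and Gja1 cross 0 when that library is left out.

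Most of the other FGF pathway genes were lower in TMAO, a split that rests on vehicle replicate 1, without which 7 were higher and 9 lower. Of 18 listed, 16 passed the filter, with 3 higher and 13 lower in TMAO, a median of -0.28 on the log2 scale (-0.034 without vehicle replicate 1) and 0 calls by limma after adjustment. The receptor Fgfr1 was at 4.99, 5.28 and 5.16 FPKM in the TMAO libraries, against 27.3, 7.34 and 6.16 FPKM in the vehicle libraries. Its groups did not overlap, with most of the difference in vehicle replicate 1 (log2 difference -0.96, or -0.33 without that library). The ligand Fgf2 averaged 3.51 ± 0.753 FPKM in TMAO and 6.56 ± 2.93 FPKM in vehicle, and the feedback inhibitor Spry1 averaged 3.01 ± 0.522 FPKM in TMAO and 5.71 ± 2.46 FPKM in vehicle. The decoy-like receptor Fgfrl1 averaged 5.601 ± 0.842 FPKM in TMAO and 7.14 ± 1.05 FPKM in vehicle, with overlapping groups.

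The start regions of Gjb6 and Fgfr3, the members with the smallest p, are shown with that of Gja1, the partner connexin that was not separated between groups. Each is the stretch from 250 to 51 bases before the RefSeq transcript start (GRCm38.p6), 200 bases read in the direction of the gene, with CG dinucleotides in capitals. Gjb6 lies at chr14:57133662-57133861 (minus strand), Gja1 at chr10:56377050-56377249 (plus strand) and Fgfr3 at chr5:33721474-33721673 (plus strand).
Gjb6: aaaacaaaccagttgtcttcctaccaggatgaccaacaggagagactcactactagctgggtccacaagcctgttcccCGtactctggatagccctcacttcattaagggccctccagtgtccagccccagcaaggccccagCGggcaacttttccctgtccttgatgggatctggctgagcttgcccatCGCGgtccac
Gja1: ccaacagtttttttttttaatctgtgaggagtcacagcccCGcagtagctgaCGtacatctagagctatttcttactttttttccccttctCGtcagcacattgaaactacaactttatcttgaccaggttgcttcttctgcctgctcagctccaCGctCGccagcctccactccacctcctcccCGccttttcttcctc
Fgfr3: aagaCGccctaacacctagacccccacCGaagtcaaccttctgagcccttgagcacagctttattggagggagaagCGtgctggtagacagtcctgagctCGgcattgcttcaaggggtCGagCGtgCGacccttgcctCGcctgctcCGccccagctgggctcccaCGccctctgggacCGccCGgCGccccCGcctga
Fgfr3 holds 14 CG dinucleotides, a number reached by 19.5% of 27025 RefSeq promoters, whose median is 4. Gja1 holds 6 and Gjb6 holds 4. The letters GGGCGG, the core bound by Sp1, were found on either strand 2 times in the Fgfr3 window and 0 times in those of Gja1 and Gjb6, and 24.6% of all promoters of the same length hold them. The letters TTGGC, a repeat unit of the palindrome bound by nuclear factor I, were found in none of these 3 windows and in 35.3% of all promoters. These are matches of letters only, and the data hold no measure of binding or methylation.

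Aldh1l1, S100b and Ndrg2 are widely used as astrocyte markers outside the transport and junction roles. Aldh1l1 encodes a folate enzyme, formyltetrahydrofolate dehydrogenase (chr6:90486427-90600203, plus strand). Aldh1l1 was at 17.2, 20.04 and 16.3 FPKM in the TMAO libraries, against 16.5, 14.04 and 18.9 FPKM in the vehicle libraries. The values interleaved, and its vehicle values did not set replicate 1 apart. The means were 17.8 ± 1.98 FPKM in TMAO and 16.5 ± 2.45 FPKM in vehicle (SD, n = 3 each), a log2 difference of 0.11 (SE 0.148).

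S100b encodes a calcium-binding protein that oligodendrocytes also make (chr10:76253853-76261159, plus strand). S100b was at 43.0, 40.5 and 42.7 FPKM in the TMAO libraries, against 72.7, 45.4 and 41.6 FPKM in the vehicle libraries. Vehicle replicate 1 lay far above the other 5, which fell in one narrow band. The means were 42.1 ± 1.37 FPKM in TMAO and 53.3 ± 17.0 FPKM in vehicle (SD, n = 3 each), a log2 difference of -0.29 (SE 0.224), or -0.047 without vehicle replicate 1.

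Ndrg2 encodes an astrocyte-enriched member of the N-myc downstream regulated family (chr14:51905271-51914158, minus strand). Ndrg2 was at 172, 186 and 157 FPKM in the TMAO libraries, against 292, 182 and 169 FPKM in the vehicle libraries. Here too vehicle replicate 1 stood above the rest and the other 5 libraries overlapped. The means were 171 ± 14.4 FPKM in TMAO and 214 ± 67.4 FPKM in vehicle (SD, n = 3 each), a log2 difference of -0.28 (SE 0.237), or -0.037 without vehicle replicate 1. Adjusted limma p for Aldh1l1, S100b and Ndrg2 were 0.670, 0.484 and 0.516 (Benjamini-Hochberg).

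In the families around these 3 genes, limma called 0 genes after adjustment. Of 15 folate and aldehyde dehydrogenase genes, 11 passed the filter, with 4 higher and 7 lower in TMAO and a median log2 difference of -0.16. The mitochondrial folate enzymes Shmt2 and Mthfd2 and the cytosolic Mthfd1 were among the lower ones, with log2 differences of -0.38, -0.73 and -0.26. Aldh1a2, a retinoic acid enzyme typical of meninges, had -2.16, or -1.03 without vehicle replicate 1. The 7 fibroblast markers summed to 5.42, 8.40 and 3.83 FPKM in the TMAO libraries, against 99.4, 13.6 and 5.29 FPKM in the vehicle libraries, and their part in the Aldh1a2 level was not tested. Of 11 S100 and NDRG genes, 10 passed the filter, with 2 higher and 8 lower and a median of -0.80 (-0.35 without vehicle replicate 1). S100a11 averaged 10.5 ± 2.08 FPKM in TMAO and 47.3 ± 46.9 FPKM in vehicle, S100a16 averaged 19.7 ± 2.84 FPKM in TMAO and 41.0 ± 19.8 FPKM in vehicle, and Ndrg1, a gene of myelinating cells, averaged 7.88 ± 1.63 FPKM in TMAO and 15.1 ± 6.88 FPKM in vehicle. Ndrg3, of the same family, averaged 47.2 ± 5.53 FPKM in TMAO and 31.4 ± 11.6 FPKM in vehicle.

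**Figure D3:**
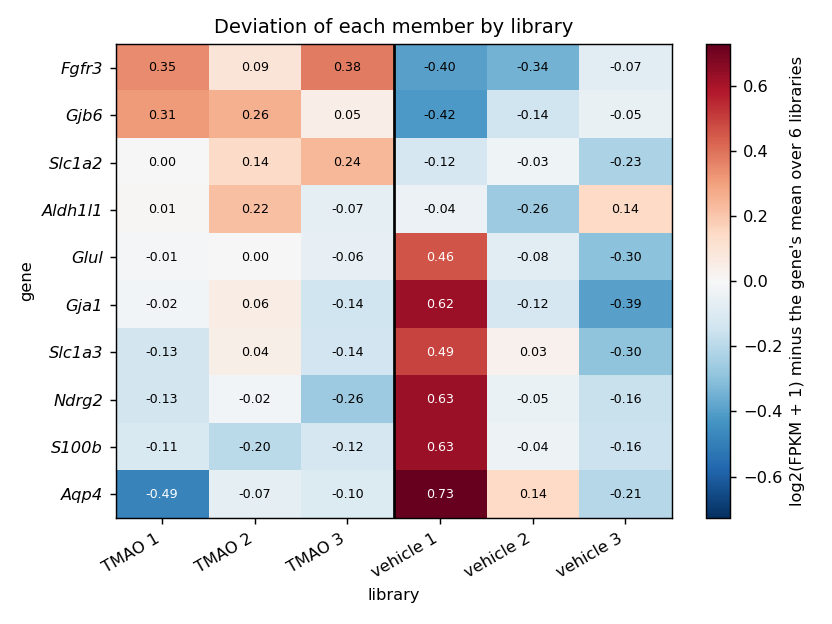
Each gene's log2(FPKM + 1) in each library minus its mean over the 6 libraries, with the TMAO libraries left of the vehicle libraries. Vehicle replicate 1 is the highest library for 6 of the 10 genes and the lowest for Gjb6 and Fgfr3.

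The members did not move as one block between libraries. Over the 6 libraries, the 45 pairs of members had a median Pearson correlation of -0.027, with 21 positive and 24 negative pairs. Without vehicle replicate 1 the median was 0.16, with 29 positive and 16 negative. Slc1a3, Glul, Gja1, Aqp4, S100b and Ndrg2, the 6 members highest in vehicle replicate 1, correlated with each other at 0.768 to 0.994. Without that library, these pairs ran from -0.0647 to 0.970. Slc1a2, Gjb6 and Fgfr3, grouped because each was higher in every TMAO library than in any vehicle library, correlated with each other at 0.508 to 0.823. Without vehicle replicate 1 these pairs ran from 0.399 to 0.717. Both groupings were made from these same values, which favours positive correlations within them. The tightest of the pairs examined was Glul with Gja1, at 0.994 (0.970 without vehicle replicate 1). Gjb6 and Fgfr3 correlated at 0.823 (0.717 without that library), and Gjb6 and Aqp4 at -0.879 (-0.681). S100b and Ndrg2 correlated at 0.949 over 6 libraries and 0.0140 without vehicle replicate 1, so that relation rests on 1 library. All these values are descriptions over few libraries that share treatment and cell makeup.

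Ranked by mean FPKM over the 6 libraries, the order was Glul (376.7), Ndrg2 (192.7), Slc1a2 (178.9), Slc1a3 (60.1), S100b (47.7), Gjb6 (31.8), Fgfr3 (23.8), Aldh1l1 (17.2), Aqp4 (16.4) and Gja1 (11.3). Neighbours in this order had separate ranges for Glul and Ndrg2, Slc1a2 and Slc1a3, and S100b and Gjb6. All other neighbours had overlapping ranges. Within libraries, Ndrg2 exceeded Slc1a2 in 3 of the 6 and Aldh1l1 exceeded Aqp4 in 4, while the remaining neighbours kept their order in all 6. The spread between vehicle libraries was larger than that between TMAO libraries for 8 of the 10 members.

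The 45 other astrocyte-enriched genes examined all passed the filter, with 25 higher and 20 lower in TMAO and a median of 0.023 on the log2 scale. Without vehicle replicate 1, 35 were higher and 10 lower, with a median of 0.13, close to the 0.14 of the members. Limma called 0 of the 45 after adjustment, and 6 were higher and 2 lower at an unadjusted p under 0.05, beside 4.84% and 7.22% of all genes. Etnppl, an ethanolamine-phosphate lyase, averaged 8.53 ± 1.66 FPKM in TMAO and 3.94 ± 1.19 FPKM in vehicle, the zinc transporter Slc39a12 averaged 15.1 ± 1.23 FPKM in TMAO and 11.2 ± 0.432 FPKM in vehicle, and the nuclear receptor Rorb averaged 4.13 ± 0.572 FPKM in TMAO and 2.84 ± 0.258 FPKM in vehicle. The urea transporter Slc14a1 had the opposite direction, at 3.37 FPKM in TMAO and 6.66 FPKM in vehicle. The groups of these 4 genes, picked for their small p, did not overlap. Among the 45, groups did not overlap for 7 genes higher and 3 lower in TMAO, beside 12.1% and 17.5% of all genes tested.

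**Figure D4:**
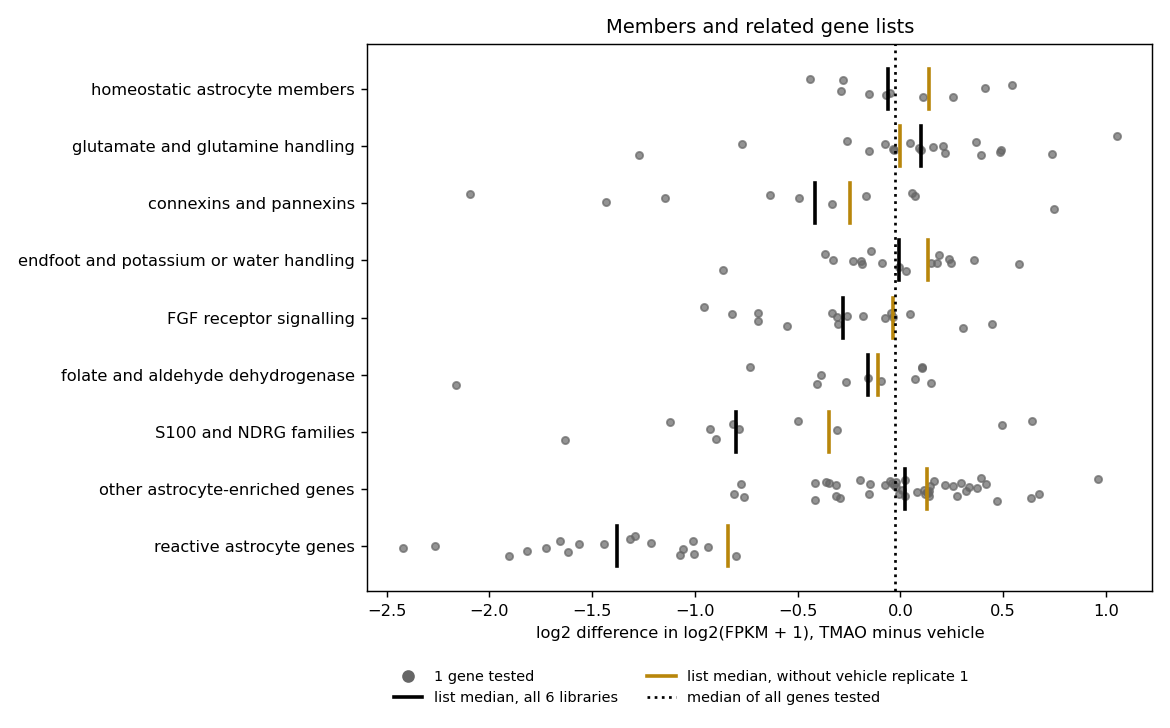
Log2 difference between TMAO and vehicle, TMAO minus vehicle, for every tested gene of the members and of 8 related lists, with the list medians for all 6 libraries and without vehicle replicate 1. The members and the other astrocyte-enriched genes lie around the median of all genes, and the 18 reactive astrocyte genes all lie below 0.

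The reactive astrocyte genes, which astrocytes raise after injury and inflammation, were lower in TMAO by direction throughout, some with overlapping groups. Of 19 listed, 18 passed the filter and all 18 were lower in TMAO, 12 of them without overlap, with a median of -1.38 on the log2 scale (-0.84 without vehicle replicate 1). At an unadjusted limma p under 0.05, 13 were lower, and 0 passed after adjustment. Over all genes tested, 17.5% were lower without overlap and 7.22% were lower at that unadjusted p. The transcription factor Stat3 averaged 8.93 ± 1.93 FPKM in TMAO and 23.2 ± 10.4 FPKM in vehicle, and the small heat shock protein Hspb1 averaged 12.7 ± 3.10 FPKM in TMAO and 88.3 ± 89.5 FPKM in vehicle. The vehicle values of Hspb1 were 192, 41.3 and 32.2 FPKM, with vehicle replicate 1 far above the rest. Cxcl10, a chemokine, and Steap4, a metalloreductase, had log2 differences of -1.06 and -1.01, with overlapping groups. The filament gene Gfap over the summed members was 0.108, 0.156 and 0.153 in the TMAO libraries, against 0.310, 0.211 and 0.194 in the vehicle libraries, without overlap. Many of these genes are also made by vascular, meningeal or blood-borne cells. The 7 erythroid markers summed to 80.7, 110 and 105 FPKM in the TMAO libraries, against 602, 267 and 196 FPKM in the vehicle libraries. The 8 neutrophil markers summed to 6.87, 8.37 and 4.88 FPKM in the TMAO libraries, against 121, 57.6 and 14.6 FPKM in the vehicle libraries, and the part of these cells in the reactive gene levels was not tested.

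**Figure D5:**
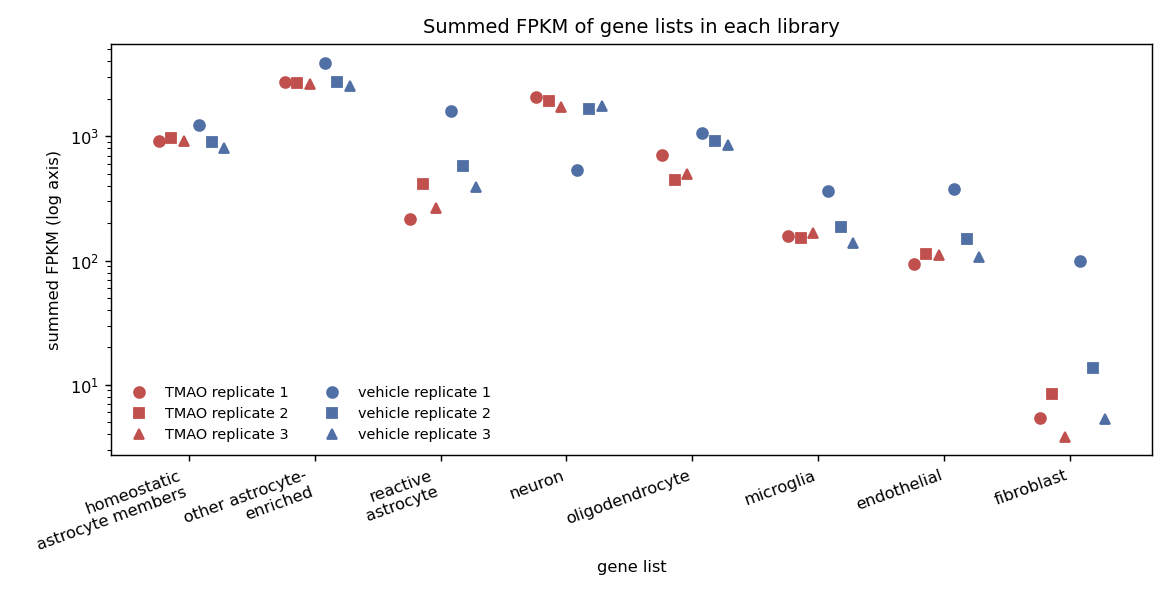
Summed FPKM of the 10 members, the other astrocyte-enriched and reactive astrocyte genes, and the markers of 5 other cell types in each library, on a log axis, with TMAO libraries left of vehicle libraries. Vehicle replicate 1 has the lowest neuronal sum (539 FPKM) and the highest sum of every other list shown, members included (1224 FPKM).

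Set against other lists, the level of the members depended on the comparison chosen. As a share of total FPKM, they made up 0.288%, 0.315% and 0.300% of the TMAO libraries. The vehicle libraries held 0.387%, 0.295% and 0.246%, with overlap. The summed members over the 15 neuronal markers were 0.442, 0.504 and 0.532 in the TMAO libraries, against 2.27, 0.545 and 0.455 in the vehicle libraries, with overlap. Over the 13 oligodendrocyte markers they were 1.30, 2.15 and 1.87 in the TMAO libraries, against 1.15, 0.980 and 0.949 in the vehicle libraries, where all TMAO ratios were the higher ones. The oligodendrocyte sums averaged 551 FPKM in TMAO and 943 FPKM in vehicle, beside 937 and 976 FPKM for the summed members. Over the 45 other astrocyte-enriched genes the summed members were 0.335, 0.360 and 0.349 in the TMAO libraries, against 0.313, 0.330 and 0.319 in the vehicle libraries, again without overlap but within a narrow range.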

How the data were processed

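RNA from brain of 3 TMAO and 3 vehicle libraries was sequenced on an Illumina NovaSeq, per the labels' protocols, which mention pooled RNA in an unfilled template sentence, so whether a library pools animals is unknown. Trimming used cutadapt 1.9 and the build was mm9, per the submitters' processing notes. For aligner, quantifier, annotation and the authors' test, names were not given in the sources used here. The authors deposited FPKM per gene and library, per the file headers, with no read counts, so depth is unknown and total FPKM ran from 305701 to 326977. The authors also deposited the ratio (fold) of TMAO over vehicle, its log2, a p-value and a q-value for each gene.

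FPKM were taken as log2(FPKM + 1), which understates changes of low genes. Genes reaching 1 FPKM in 3 or more of 6 libraries were kept (14206, with all 10 members among them) and fitted in R 4.3.3 with limma 3.58.1 (lmFit, then eBayes with trend and robust estimation), two-sided, adjusted by Benjamini-Hochberg over all genes. The fit was tested on simulated data with 200 changed genes, whose changes were all larger than those of the members. This test does not show how changes of the members' size are recovered. Single values were compared by exact permutation. Members and lists were chosen with earlier results of these data known. Named genes were all members, up to 4 genes with the smallest p per related list, and the 8 genes most correlated with the members. 1 gene that this rule names is not reported here. Replicate numbers were not taken to pair the libraries in the fit reported. Alternatives covered scaling, pseudocounts, filters, limma settings, a replicate block and leaving out each library. Scaling to 45 other astrocyte-enriched genes was added after seeing the data. Gene positions are GRCm38 (GENCODE) by gene ID, since 99.6% of IDs matched, and promoters are RefSeq, with 9 of 10 members found. Figures used matplotlib 3.10.9.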

Additional observations from a re-analysis of the deposited data

How the results depend on the processing

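No gene and no member passed limma's adjusted threshold of 0.05 under any of the 18 alternative fits, nor at 0.1 in the fit reported, and the smallest adjusted p of any gene was 0.0930 (without TMAO replicate 2). Slc1a2, Gjb6, Fgfr3, Aqp4, S100b and Ndrg2 kept their direction in all 18. The direction of Glul turned to 0.037 under median scaling, 0.18 under quantile normalization, 0.0082 without mitochondrially encoded genes and 0.17 with array weights. Gja1 turned to 0.0071 under median scaling and 0.21 with array weights, Slc1a3 to 0.12 and Aldh1l1 to -0.047 with array weights. Leaving out each library gave -0.21 to 0.17 for Glul, -0.29 to 0.22 for Gja1 and -0.34 to 0.054 for Slc1a3, each positive only without vehicle replicate 1. Between 4 and 7 members were higher when a library was left out, with 7 only without vehicle replicate 1. The difference between the group means of the ratio of Gjb6 over Gja1, 0.78 on the linear scale (mean ratio 3.39 in TMAO and 2.62 in vehicle), was 0.13 without vehicle replicate 1 and 1.32 without vehicle replicate 3, and that of Slc1a2 over Slc1a3, 0.83 (3.49 in TMAO and 2.66 in vehicle), was 0.47 without vehicle replicate 1 and up to 1.07. Of the genes at an unadjusted p under 0.05, 40.1% were higher in TMAO, against 55.8% under median scaling, 52.8% under quantile normalization and 6.88% when scaled to other astrocyte-enriched genes. Their number, 1712, was 970 with a filter at 5 FPKM, 1074 with array weights, 2720 when scaled to other astrocyte-enriched genes, 528 to 767 without 1 TMAO library and 3365 without vehicle replicate 3. The unadjusted p of Gjb6 was over 0.05 with array weights, the replicate block, scaling to other astrocyte-enriched genes, and without TMAO replicate 1, TMAO replicate 2 or vehicle replicate 2, and that of Fgfr3 with array weights only (0.0962). Slc1a2 had an unadjusted limma p of 0.0478 both under median scaling, where 3 members were higher at that level, and with array weights, where it was the 1 member. Aqp4 had an unadjusted limma p of 0.0366 without vehicle replicate 3. With a replicate block 4 members were higher, 1 of them (Fgfr3) at an unadjusted limma p under 0.05, and 0 genes passed after adjustment. Deviations of same-numbered libraries correlated at -0.216, -0.0636 and -0.0153, and those of differently numbered ones at -0.266 to 0.244. With so few libraries, these values cannot show whether the numbers pair the libraries. The causes of these shifts were not tested. Without read counts, the precision of low genes cannot be judged from depth.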

Other observations

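Among 7913 genes with a mean of at least 5 FPKM, the 8 with the highest mean Pearson correlation with the 10 members over the 6 libraries were Tmem263, Mbnl1, Cldn10, Manea, Cyp2d22, Itih5, Ramp2 and Acsl3, at 0.462 to 0.471. Since the members themselves correlated in both directions, no gene could have reached more than 0.476. Without vehicle replicate 1 the 8 highest were Enpp2, Fam168b, Lnpep, Manea, Sort1, Fto, Lrrc8c and Cdk14, at 0.480 to 0.488 where at most 0.490 was possible, so Manea was named in both. Fto, which encodes the RNA demethylase named in the title of the series, was among the 8 only without vehicle replicate 1. A relation of Fto to the members was not tested.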
